A study of Mus musculus with 2 samples.

Results

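The genes described are the haemoglobin genes Hba-a1, Hba-a2, Hba-x, Hbb-bs, Hbb-bt and Hbb-y, the tissue globins neuroglobin (Ngb) and cytoglobin (Cygb), and Alas2, which makes the first precursor of haem in red cell precursors. They were chosen by symbol, 9 of the 55536 gene rows of the tables, and all 9 had a row. Total RNA had been sequenced from the left cerebral cortex of 2 females of the hybrid strain B6CASTF1/J, the offspring of C57BL/6J and CAST/EiJ, aged 10 days. Each library took 300 ng of RNA and carried ERCC spike-ins, a set of synthetic transcripts, and the libraries are biological replicates 1 and 2 of a single group. The labels name no treatment, and the sources do not say whether the vessels were flushed of blood before dissection. With 1 group of 2 animals no conditions are compared and no test was made, so every value below is a description of these 2 libraries. Expected reads in gene rows numbered 31031340 for replicate 2 and 29867112 for replicate 1. All 10 neuronal marker genes read as a check of the tissue passed 1 TPM in both libraries, among them Snap25 with 589 TPM in replicate 2 and 594 TPM in replicate 1.

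Haemoglobin is a tetramer of alpha-type and beta-type chains, each carrying a haem, and its transcripts are made in red cell precursors and persist for a time in young circulating red cells. The alpha-type genes lie together on mouse chromosome 11 and the beta-type genes on chromosome 7, and each cluster holds embryonic genes beside the adult ones. Neuroglobin is known from neurons and cytoglobin from fibroblast-like cells, pericytes and some neurons, and in both the haem iron is held from either side until a ligand binds. In whole tissue, fewer cells of a type and less RNA per cell cannot be told apart.

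The members run from identical proteins to distant relatives. Hba-a1 and Hba-a2 encode the same 142 residues, and Hbb-bs and Hbb-bt the same 147 residues. The adult alpha chain had 53.5% of aligned residues in common with the embryonic chain of Hba-x, and the adult beta chain 70.7% with that of Hbb-y. Alpha and beta chains had 42.9% in common. Ngb, of 151 residues, and Cygb, of 190, were 22% identical to each other.

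The near-identical copies matter for the values of the 4 adult globin genes, because a read that fits both has to be divided between them. The coding sequences of Hba-a1 and Hba-a2 are 429 bases long and differ at 1 base, C381T, with positions counted from 1 at the first coding base and the base of Hba-a1 given first. Those of Hbb-bs and Hbb-bt are 444 bases long and differ at 1 base, C417T, with the base of Hbb-bs first. Both differences are synonymous, in codons 127 and 139. The coding strand around each difference is given here from the GENCODE M21 transcripts on mm10, with the differing base in capitals. In this reference these are the only coding bases that tell the copies apart, and the CAST/EiJ alleles of the hybrid were not examined. The alpha stretches lie on the plus strand at chr11:32284313-32284373 and chr11:32297130-32297190, and the beta stretches on the minus strand at chr7:103826665-103826722 and chr7:103812656-103812713.
Hba-a1: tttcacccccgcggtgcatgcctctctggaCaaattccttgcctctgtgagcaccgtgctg
Hba-a2: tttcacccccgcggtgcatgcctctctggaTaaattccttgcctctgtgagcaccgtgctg
Hbb-bs: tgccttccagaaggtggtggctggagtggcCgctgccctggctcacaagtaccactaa
Hbb-bt: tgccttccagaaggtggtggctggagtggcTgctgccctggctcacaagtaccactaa

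Outside the coding bases the alpha copies stay alike and the beta copies do not. In the alpha pair, 35 bases before and 74 bases after the coding sequence are identical. The model Hba-a1-201 of 699 bases begins 161 bases further upstream than Hba-a2-201 of 554 bases, and also 161 bases upstream of the RefSeq start of Hba-a1. In the beta pair only 14 bases before the coding sequence and 0 after it are identical. Of all words of 31 bases, 8.97% of those in Hba-a2-201 occurred in no other gene of M21, against 28.6% in Hba-a1-201, 33.1% in Hbb-bs-201 and 40.6% in Hbb-bt-201. All words of Ngb-201, Hba-x-201 and Hbb-y-201 were their own. In Cygb-201 92.4% were, the rest lying in Prcd, and in Alas2-201 84.4%, the rest lying in Apex2 and Mir3620. These 3 genes overlap from the opposite strand, and the sources do not say whether the counting used the strand. Apex2 had 269 reads in replicate 2 and 343 in replicate 1, Prcd had 17 and 11, and Mir3620 had 0 in both.

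**Figure D1:**
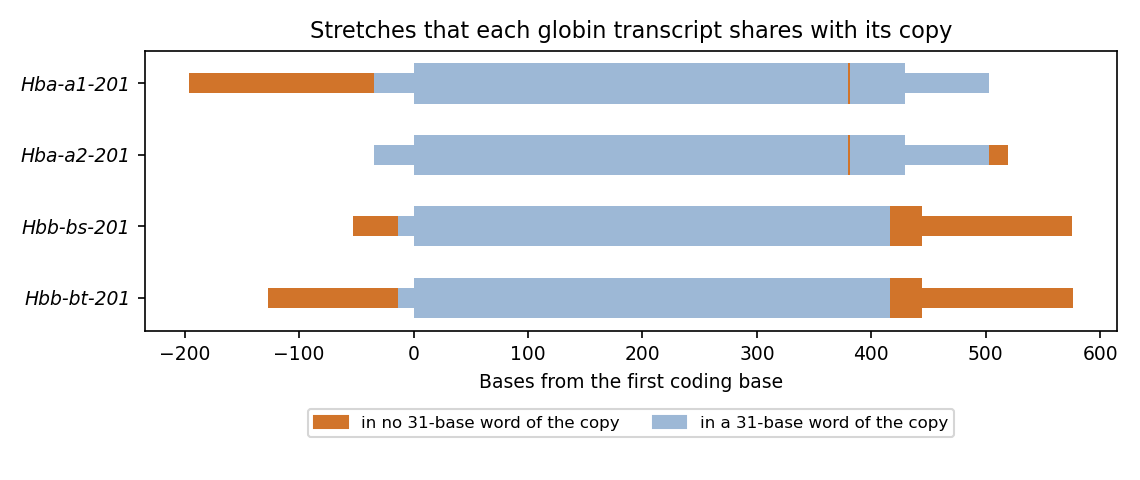
Each bar is 1 transcript model, placed by its distance in bases from the first coding base, with the coding part drawn taller. Blue bases lie in a 31-base word that the copy also holds and orange bases do not: Hba-a1-201 has 162 orange bases of 699, Hba-a2-201 17 of 554, Hbb-bs-201 198 of 628 and Hbb-bt-201 273 of 703.

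The 4 adult globin genes were all expressed in both libraries, and 3 of them stood near the top of the 22028 protein-coding rows by mean level. Levels are TPM, a share of all transcripts after division of reads by length and scaling to a fixed total, from the tables made from alignments unless another source is named. Hbb-bs, the major adult beta gene of this reference, had 282 TPM in replicate 2 and 240 TPM in replicate 1 (mean 261 ± 29.5, SD, n = 2) and rank 239. Hba-a1 had 258 TPM in replicate 2 and 200.3 TPM in replicate 1 (229 ± 41.0, SD, n = 2) and rank 309. Hba-a2 had 233 TPM in replicate 2 and 189 TPM in replicate 1 (211 ± 31.2, SD, n = 2) and rank 352. These 3 genes overlapped in level between neighbours, since the lower library of each stood below the higher library of the next. Hbb-bt, the second adult beta gene, was lower, with 36.4 TPM in replicate 2 and 28.6 TPM in replicate 1 (32.5 ± 5.51, SD, n = 2) and rank 3797. Its 2 values lay apart from those of the other 3 genes.

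The 4 genes are reported together as well, because the sum of their reads does not move when reads are divided differently between copies. Their summed TPM can still move, since the copies differ in effective length. By alignment it was 600 bases for Hba-a1-201 and 455 for Hba-a2-201, and 529 for Hbb-bs-201 and 604 for Hbb-bt-201. Some 31-base words of the alpha models also occur in Hba-ps4, which is not in the sum. The summed level was 810 TPM in replicate 2 and 659 TPM in replicate 1 (734 ± 107, SD, n = 2), from 8732 and 6551 reads. That was 0.160% of the TPM of protein-coding rows in replicate 2 and 0.124% in replicate 1. As a single gene it would have ranked below 37 protein-coding genes in replicate 2 and below 51 in replicate 1. Next above it in mean level was Atp1b1, a subunit of the sodium pump, with 736 TPM, and next below was Ptms with 719 TPM.

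Both embryonic genes were at 0 reads in both libraries and in both kinds of table. Hba-x encodes the embryonic alpha-type chain zeta. A count of 0 allows up to 3 reads, or for Hba-x 0.248 TPM (replicate 2) and 0.271 TPM (replicate 1). Hbb-y encodes an embryonic beta-type chain, and its limits were 0.274 TPM (replicate 2) and 0.300 TPM (replicate 1). The upper ends of the deposited credible intervals were 0.399 TPM (replicate 2) and 0.433 TPM (replicate 1) for Hba-x, and 0.266 and 0.293 TPM for Hbb-y. The limits from 3 reads, like the counting intervals of ratios, cover counting error only.

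Cygb, Ngb and Alas2 lay well below the adult haemoglobin genes. Cygb had 10.7 TPM in replicate 2 and 11.2 TPM in replicate 1 (11.0 ± 0.389, SD, n = 2), from 489 and 470 reads, and rank 8119. Ngb had 4.28 TPM in replicate 2 and 4.58 TPM in replicate 1 (4.43 ± 0.212, SD, n = 2), from 133 and 130 reads, and rank 10707. Alas2 had 4.17 TPM in replicate 2 and 3.74 TPM in replicate 1 (3.96 ± 0.304, SD, n = 2), from 152 and 119 reads, and rank 10985. The order Hbb-bs, Hba-a1, Hba-a2, Hbb-bt, Cygb, Ngb, Alas2 was the same in both libraries. In replicate 2 the lead of Hba-a1 over Hba-a2 came mostly from the retained-intron model Hba-a1-202, with 24.0 TPM. The coding models Hba-a1-201 and Hba-a2-201 were nearly level there, at 234.3 and 233.5 TPM. In the alignment-free tables Hba-a1 stood above Hbb-bs in replicate 2 (716 and 709 TPM) and below it in replicate 1 (544 and 558 TPM). The alignment-based values of Ngb and Alas2 did not cross, but their deposited credible intervals did, with 3.63 to 5.15 TPM for Ngb and 3.54 to 5.61 TPM for Alas2 in replicate 2. The sources do not give the level of these intervals.

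In all, 7 of the 9 members reached 1 TPM in both libraries, where 59.1% of protein-coding rows and 26.9% of all gene rows did. The count was also 7 in the alignment-free tables and at a limit of 0.5 TPM. It was 5 at a limit of 5 TPM, which Ngb and Alas2 missed.

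**Figure D2:**
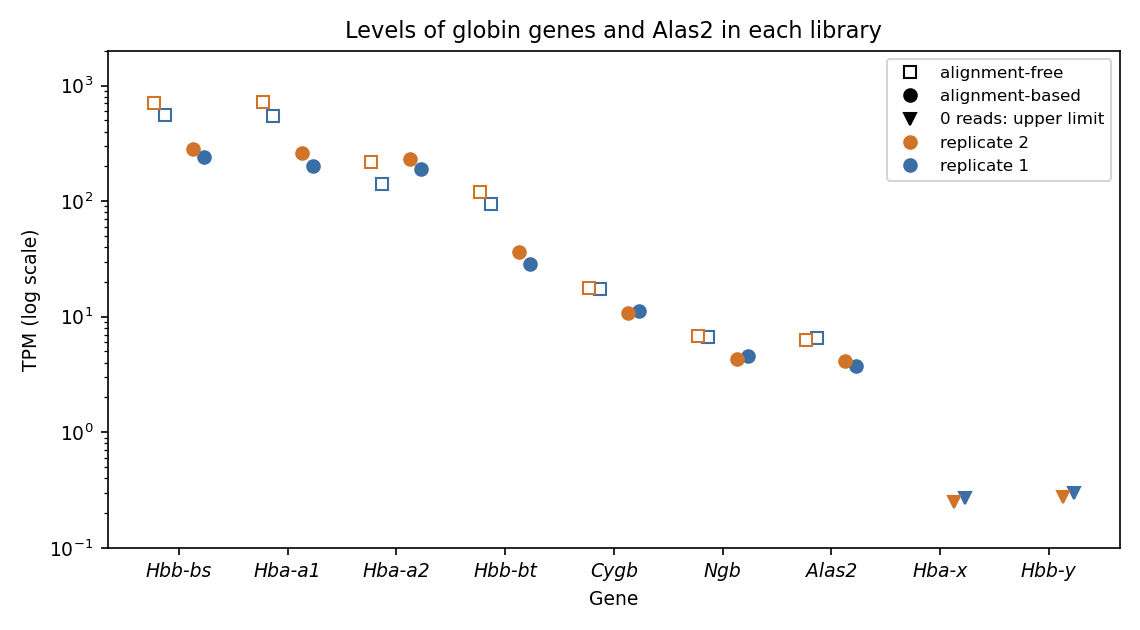
TPM on a log scale is plotted for each gene, with open squares for the alignment-free tables and filled circles for the alignment-based ones, replicate 2 (orange) left of replicate 1 (blue). Triangles mark the upper limits of 0.248 to 0.300 TPM for the genes at 0 reads, and Hba-a2 is the gene whose open squares (219 and 140 TPM) do not lie above its filled circles (233 and 189 TPM).

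The tables hold a second quantification, made straight from the reads without alignment, and it gave the adult globins higher levels. Their sum was 1764 TPM in replicate 2 and 1335 TPM in replicate 1 in the alignment-free tables, against 810 and 659 TPM in the alignment-based ones, which is 2.18-fold and 2.03-fold. The reads behind the sum were close in number, 8278 and 6119 alignment-free against 8732 and 6551 alignment-based. The lengths by which the reads were divided differed more. For Hba-a1-201 the effective length in replicate 1 was 351 bases in the alignment-free tables and 600 bases in the alignment-based ones. For Hbb-bs-201 it was 281 and 529 bases, and for Ngb-201 the lengths were closer, at 1268 and 1517 bases. The part of length in the higher levels was not tested. Protein-coding genes at 1 TPM or more in both alignment-based libraries, and with any level in both alignment-free ones, numbered 12976. Over these genes the alignment-free level was 1.5-fold the alignment-based one at the median. The median was 1.71-fold over the 376 of these genes between 500 and 750 bases long.

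Single members moved by unequal amounts between the tables. Alignment-free levels were 3.28-fold the alignment-based ones for Hbb-bt, 2.74-fold for Hba-a1, 2.41-fold for Hbb-bs, 1.63-fold for Alas2, 1.60-fold for Cygb and 1.52-fold for Ngb. For Hba-a2 the alignment-free level was lower, at 0.833-fold. The alignment-free reads of Hba-a1 were 4075 in replicate 2 and 2987 in replicate 1, against 3072 and 2250 alignment-based. Those of Hba-a2 were 752 and 462, against 2175 and 1612. Those of Hbb-bt were 691 and 520, against 451 and 324, while Ngb had 139 and 132 against 133 and 130.

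The ratios between partner genes therefore differ in how far they can be read. Alpha over beta globin was 0.63 in replicate 2 and 0.53 in replicate 1 on the log2 scale of TPM + 0.1, with a mean of 0.58 ± 0.07 (SD, n = 2), or 1.49-fold. The alignment-free tables gave 0.12 ± 0.07, with 0.17 in replicate 2 and 0.07 in replicate 1. Hba-a1 over Hba-a2 was 0.15 in replicate 2 and 0.08 in replicate 1 (mean 0.11), and 1.71 and 1.96 in the alignment-free tables (mean 1.83), so the copies stood 1.08-fold or 3.56-fold apart by the table chosen. This ratio rests on the few bases that separate the copies in the reference, and in replicate 2 by alignment on Hba-a1-202, and is uncertain. Alleles of the hybrid were not separated, which limits both this ratio and the next. Hbb-bs over Hbb-bt was 2.95 in replicate 2 and 3.06 in replicate 1 (mean 3.01, 8.04-fold), and the alignment-free mean was 2.57 (5.93-fold), so Hbb-bs was the higher in every library and table.

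The remaining pairs kept their direction in both kinds of table. Ngb over Cygb was -1.30 in replicate 2 and -1.28 in replicate 1 (mean -1.29, with Ngb 2.45-fold lower), and the alignment-free mean was -1.37. Alas2 over Alas1, the synthase that all tissues use, was -3.83 in replicate 2 and -4.01 in replicate 1 (mean -3.92, with Alas2 15.1-fold lower), and the alignment-free mean was -3.47. Alas1 itself had 60.6 TPM in replicate 2 and 61.8 TPM in replicate 1. The adult globin sum over Alas2 was 7.57 in replicate 2 and 7.42 in replicate 1 (mean 7.50, 180-fold).

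The adult globins were higher in replicate 2 than in replicate 1, and the tissue globins differed little. Alas2 was higher in replicate 2 by reads of both kinds of table and by alignment-based TPM, but not by alignment-free TPM. Reads were scaled by TMM, which sets the bulk of genes level between libraries, and 0.5 was added to each before the ratio. The sum of the adult globins was 1.31-fold in replicate 2 over replicate 1, a log2 ratio of 0.39 with an exact binomial 95% counting interval of 1.27-fold to 1.35-fold. By gene the ratio was 1.37-fold for Hbb-bt, 1.34-fold for Hba-a1, 1.33-fold for Hba-a2 and 1.26-fold for Hbb-bs. Alas2 was at 1.26-fold on far fewer reads, with a counting interval on the log2 scale of -0.03 to 0.69. Its alignment-free TPM was lower in replicate 2, at 6.30 against 6.54 TPM in replicate 1, though from more reads, 149 against 122. Within it the model Alas2-204 had 0.942 TPM in replicate 2 and 1.99 TPM in replicate 1, from 3.44 and 6.99 reads. Cygb was at 1.02-fold and Ngb at 1.01-fold. The deposited credible intervals of the libraries lay apart for Hbb-bs (263 to 284 TPM in replicate 2 and 223 to 243 TPM in replicate 1), Hba-a1 and Hba-a2, and overlapped for Hbb-bt, Cygb, Ngb and Alas2.

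Of the 7 members with reads, 5 were at least 1.2-fold higher in replicate 2 (the adult globins and Alas2), a limit chosen after the values were seen. Of the 16459 genes with a mean of 20 reads or more, 7.49% were, and 13.0% were at least 1.2-fold lower. Among the 7670 genes with a mean of 300 to 3000 reads, which is the range of the adult globins, 2.99% were at least 1.2-fold higher, and the central 95% of log2 ratios ran from -0.29 to 0.27. The 4 adult globin ratios, from 0.34 to 0.45, lay above that range. The 4 genes share reads and may come from the same cells, so they are not 4 separate observations, and 2 animals do not show whether the difference is usual between mice.

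**Figure D3:**
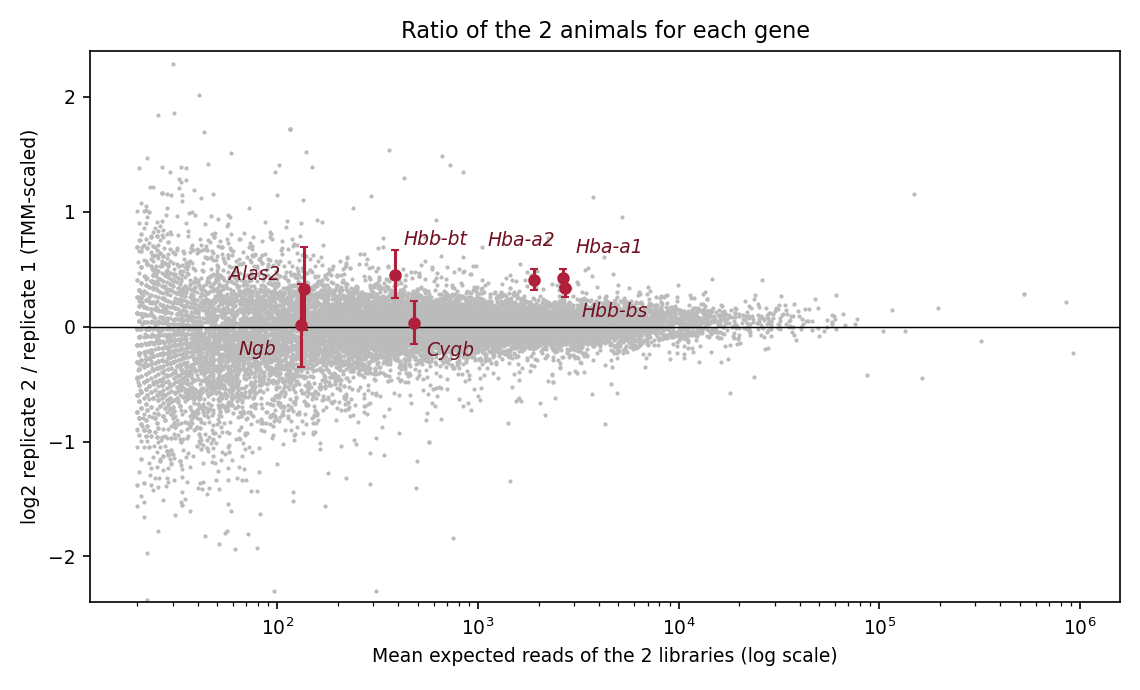
Each grey point is 1 of 16459 genes with a mean of 20 reads or more, by its mean reads (log scale) and its log2 ratio of replicate 2 over replicate 1; 19 genes lie outside the axis. Red points are the members with their 95% counting intervals, and the 4 adult globins sit at 0.34 to 0.45 while Ngb and Cygb sit at 0.01 and 0.03.

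Markers of other blood cells were read beside these ratios. The neutrophil genes S100a8 and S100a9 had 11 and 8 reads in replicate 2 and no read in replicate 1. Of these markers 3 had a mean of 20 reads or more. The pan-leukocyte gene Ptprc had 71 reads in replicate 2, against 90 in replicate 1. The platelet genes Pf4 and Itga2b had 17 and 25 in replicate 2, against 33 and 22 in replicate 1. Over all 13 of these markers the summed level was 6.92 TPM in replicate 2 and 7.52 TPM in replicate 1, with Ly6g at 0 reads. The lower sum of replicate 2 rests on Pf4 alone, with 1.83 TPM in replicate 2 and 4.11 TPM in replicate 1. The part of any of them in the globin ratio was not tested.

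The 5 red cell markers reported beside haemoglobin were at the edge of detection in the alignment-based tables. Alas2, at 4.17 TPM in replicate 2 and 3.74 TPM in replicate 1, was not. Nor was Gypc of the wider red cell list, at 2.35 and 2.16 TPM from 100 and 82 reads. The markers Slc4a1, Epb42, Rhag, Hemgn and Ermap summed to 0.31 TPM from 28 reads in replicate 2 and 0.57 TPM from 24 reads in replicate 1. None of the 5 reached 1 TPM in the alignment-based tables, though Ermap had 1.01 TPM in replicate 2 and 2.44 TPM in replicate 1 of the alignment-free ones. Epb42, Rhag and Hemgn had 0 reads in replicate 2 and 1 read in replicate 1. Slc4a1, the anion exchanger of the red cell membrane, had the highest mean of these, with 0.23 TPM in each library from 21 and 14 reads. Of the wider list of red cell membrane and maturation genes, 10 of 21 reached 1 TPM in both libraries. Its highest were Mkrn1 (83.5 ± 7.61 TPM) and Bnip3l (80.4 ± 13.3 TPM), which many other cells also express, and Bpgm (34.5 ± 0.212 TPM), which makes the bisphosphoglycerate that lowers the oxygen affinity of haemoglobin, and its lowest was Hemgn, with the 0 and 1 reads given above.

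Other globin genes added little. Of 6 globin genes outside the members, 2 reached 1 TPM in both libraries. These were the theta-type genes Hbq1b, with 1.08 TPM in replicate 2 and 1.64 TPM in replicate 1, and Hbq1a, with 1.05 TPM in replicate 2 and 1.03 TPM in replicate 1. In the alignment-free tables neither reached 1 TPM in both libraries, with 0.543 TPM in replicate 2 and 0.375 TPM in replicate 1 for Hbq1b, and 0.957 and 2.23 TPM for Hbq1a. Hbb-bh1, Hbb-bh2 and the muscle globin Mb had 0 reads, and androglobin, Adgb, had 17 reads in replicate 2 and 5 in replicate 1.

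The transcription regulators and the receptor Epor of red cell precursors fell on both sides of 1 TPM, with 6 of 12 at or above it in both libraries and 6 below it in both. Gata1 and Gfi1b had 0 reads in both libraries, and Klf1, the activator of adult beta globin, had 3 reads in replicate 2 and 1 in replicate 1. The highest were Bcl11a (71.9 ± 2.31 TPM), a repressor of embryonic globin genes that is also known from cortical neurons, Ldb1 (47.6 ± 2.31 TPM) and Zbtb7a (20.7 ± 2.21 TPM).

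Promoters of the members were read for 4 motifs known from globin genes. Finding these motifs in globin promoters was therefore likely in advance and is no test. The windows run from 250 bases before to 50 bases after the RefSeq start (GRCm38.p6), and 7 of 9 members had one. The motifs were the letters TATAA of the box bound by the basal machinery, the letters CCAAT, the letters CACCC known as a site of Krüppel-like factors, and the letters GATAA known as a site of GATA factors. Each was read on either strand, with any overlap between them allowed. All 4 adult globin windows held all 4 motifs, as did 1.51% of 32817 windows. They are not 4 separate cases, since in the 120 bases before the start all 117 aligned bases of Hba-a1 and Hba-a2 are identical, as are 77.1% of those of Hbb-bs and Hbb-bt. Taken alone, TATAA was in 24.9% of windows, CCAAT in 37.4%, CACCC in 57.5% and GATAA in 25.4%. The windows of Hba-x, Hbb-y and Alas2 held 3 of the 4, with no CCAAT in Hba-x and Alas2 and no TATAA in Hbb-y. For an adult alpha, an adult beta and an embryonic beta gene, the longest run of those 120 bases that lies in no exon of a transcript model is shown, with motifs in capitals, to set genes with and without reads side by side. The run of Hbb-bs lies downstream of the first exon of its model Hbb-bs-203. The runs are unequal, with 117 bases for Hba-a2, 83 for Hbb-bs and 111 for Hbb-y, and motifs further out are cut off. Among these are the CACCC of Hbb-bs at -90 and the GATAA of every gene shown, so the runs cannot be compared motif by motif. The runs are chr11:32296372-32296488 on the plus strand for Hba-a2, and chr7:103827929-103828011 and chr7:103853217-103853327 on the minus strand for Hbb-bs and Hbb-y.
Hba-a2: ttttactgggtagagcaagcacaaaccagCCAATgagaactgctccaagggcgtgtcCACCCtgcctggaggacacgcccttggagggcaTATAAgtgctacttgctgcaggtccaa
Hbb-bs: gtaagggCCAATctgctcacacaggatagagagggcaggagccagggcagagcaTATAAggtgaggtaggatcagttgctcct
Hbb-y: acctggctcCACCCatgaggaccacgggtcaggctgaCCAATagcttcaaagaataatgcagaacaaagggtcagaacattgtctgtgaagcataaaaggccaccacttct
A TATAA began 27 to 30 bases before the start in all 4 adult genes, and a CCAAT 75 to 91 bases before it. The embryonic genes, with no reads, had matches in these ranges too, a TATAA at -28 in Hba-x and a CCAAT at -83 in Hbb-y. These matches are a description of letters and no measure of binding.

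Transcript models of the same gene were given unequal shares, and Alas2 was the member whose leading model changed between libraries. Alas2-201 took 75.5% of the gene's TPM in replicate 2 and 27.5% in replicate 1, and Alas2-202 took 15.4% in replicate 2 and 62.3% in replicate 1. In reads these were 125 and 37.5 for Alas2-201, and 23.7 and 78.1 for Alas2-202. The alignment-free tables had the same direction, with 81.4% in replicate 2 and 33.7% in replicate 1 for Alas2-201, and 3.62% and 35.9% for Alas2-202. The other 6 of 7 members had the same leading model in both libraries. Among them Hbb-bt and Cygb have a single model each and could not change.

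The Alas2 models differ by 145 bases that Alas2-202 lacks, of which 84 lie in the first exon, 45 at the start of the third and 16 in the last. Only the 45 bases are coding, and they make the difference between 587 and 572 residues. They lie at chrX:150552959-150553003 on the plus strand (mm10) and are shown in capitals between 15 bases of flank on each side, since a read has to reach them or the ends to tell the models apart.
Alas2-201: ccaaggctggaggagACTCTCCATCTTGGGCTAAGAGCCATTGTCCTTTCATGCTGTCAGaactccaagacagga
Of the 31-base words of Alas2-201, 6.23% occurred in no other transcript, so the shares rest on few reads.

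Hba-a1 and Hbb-bs had minor models that the tables did not place alike. Hba-a1-202, a model with a retained intron, had 194 expected reads in replicate 2 and 0.11 in replicate 1 of the alignment-based tables, and 0 in the alignment-free ones. It has no 31-base word of its own. Hbb-bs-203 had 285.6 reads in replicate 2 and 184 in replicate 1 of the alignment-free tables, or 23.4% and 19.8% of the gene's TPM, against 2.18 and 0 reads in the alignment-based ones. Its first exon lies 84 to 168 bases upstream of the RefSeq start of Hbb-bs. Hbb-bs-202 had 16.9 reads in replicate 2 and 13.6 in replicate 1 by alignment, and 0 without. Ngb-201 took 100% of the gene in replicate 2 and 92.1% in replicate 1, and Cygb has 1 model.

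**Figure D4:**
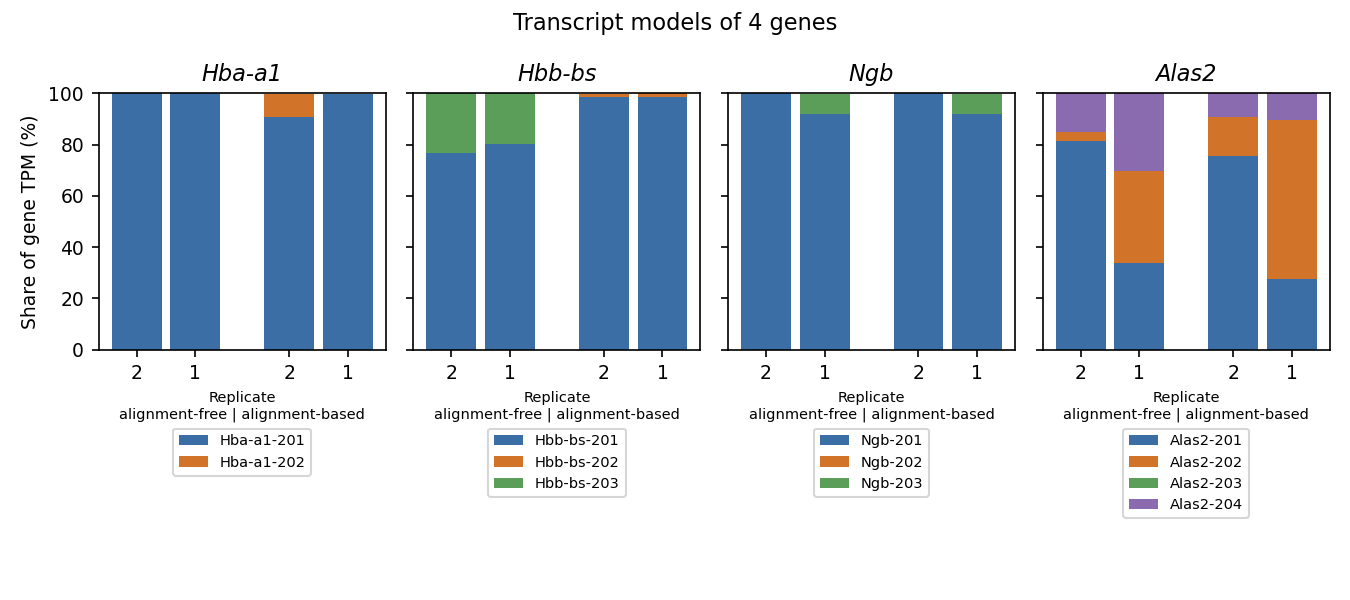
Stacked bars give the share of the gene's TPM (%) in each transcript model, with replicate 2 left of replicate 1, the alignment-free tables in the left pair of bars and the alignment-based ones in the right pair. Alas2-201 holds 81.4% and 75.5% in replicate 2 and 33.7% and 27.5% in replicate 1, and the third model of Hbb-bs (green) is visible in the left pair only.

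Genes that make haem were all expressed. All 13 genes of haem synthesis and its transport reached 1 TPM in both libraries, with a median of 13.3 TPM in replicate 2 and 12.5 TPM in replicate 1. Alas1 was highest (61.2 ± 0.820 TPM), followed by Tmem14c (32.7 ± 0.771 TPM), which carries a haem precursor into the mitochondrial matrix, and Fech (29.6 ± 1.69 TPM), which inserts the iron. The lowest, the mitochondrial iron importer Slc25a37, had 7.32 ± 0.403 TPM, so Alas2 stood below all 13. In replicate 2 over replicate 1 the median log2 ratio of the 13 was 0.11, where that of all genes with 20 reads or more was 0.000370, and 1 of the 13 was at least 1.2-fold higher, where 7.49% of all those genes were.

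Genes that clear haem and handle iron spanned a wide range. Of 13 clearance genes, 10 reached 1 TPM in both libraries. The highest were Pgrmc1 (146 ± 22.1 TPM), a haem-binding membrane protein, the haemopexin receptor Lrp1 (135 ± 7.03 TPM) and the haem transporter Slc48a1 (59.8 ± 0.820 TPM). The lowest was haptoglobin, Hp, with 1 read in each library. The haem oxygenases differed, with Hmox2 at 36.2 ± 1.40 TPM and the inducible Hmox1 at 2.44 ± 0.247 TPM (SD, n = 2); these were named after their values were seen. Of 11 iron genes, 10 reached 1 TPM, led by the ferritin chains Fth1 (787 ± 10.7 TPM) and Ftl1 (218 ± 2.52 TPM) and the transferrin receptor Tfrc (50.5 ± 2.50 TPM). Hepcidin, Hamp, was lowest, with 0 reads in replicate 2 and 1 in replicate 1.

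**Figure D5:**
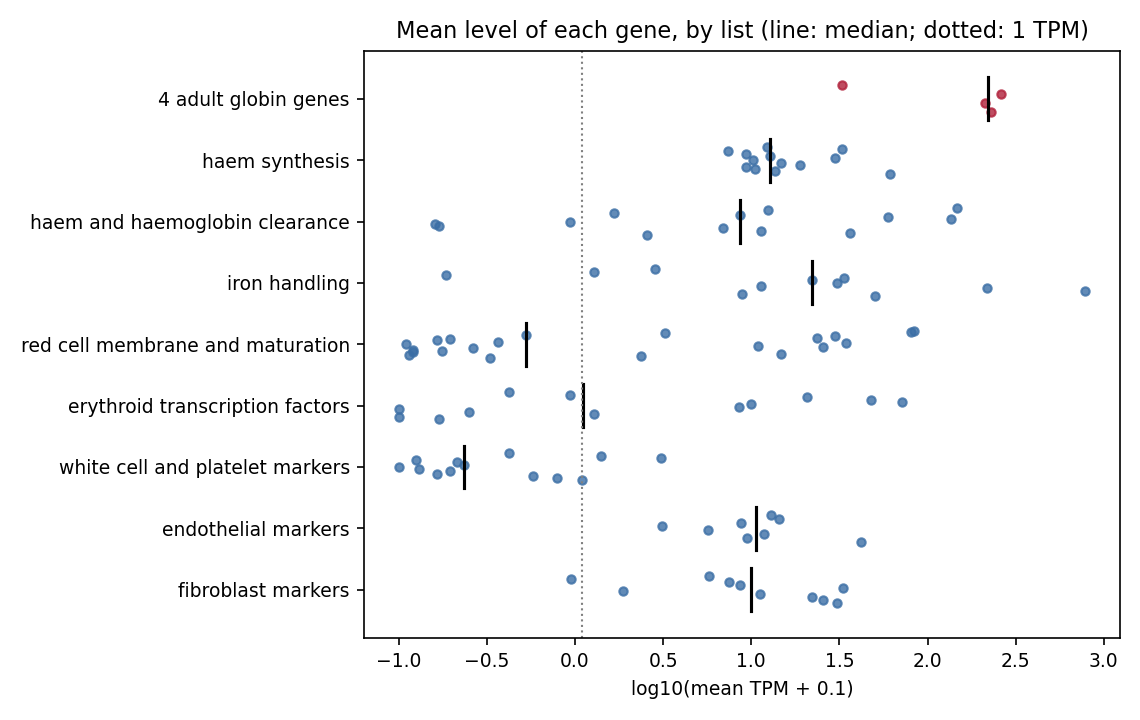
Each point is the mean level of 1 gene, as log10 of TPM + 0.1, by list, with the median as a line and 1 TPM dotted. The adult globins reach 261 TPM while 11 of 21 red cell genes lie left of the dotted line, and all 13 haem synthesis genes lie right of it.

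Cell classes that could hold the tissue globins were present throughout. The 10 neuronal markers had a median of 109 TPM in replicate 2 and 107 TPM in replicate 1, led by Stmn2 (1048 ± 85.9 TPM), Tubb3 (677 ± 12.4 TPM) and Snap25 (592 ± 3.24 TPM), with Gad2 lowest (33.8 ± 4.24 TPM). The 6 astrocyte markers had a median of 108 TPM in replicate 2 and 113 TPM in replicate 1, from Slc1a2 (660 ± 17.0 TPM) down to Gjb6 (13.5 ± 2.52 TPM). The fibroblast markers were led by Pdgfra (33.0 ± 4.63 TPM), Col1a1 (30.7 ± 6.20 TPM) and Col1a2 (25.6 ± 3.22 TPM). Pdgfra is not particular to fibroblasts in cortex, so its level is no measure of them. Of these 10 markers 9 reached 1 TPM in both libraries, with Foxd1 lowest (0.845 TPM). Of 9 pericyte and smooth muscle markers 8 did, led by Rgs5 (48.4 ± 1.67 TPM), Vtn (35.5 ± 1.80 TPM) and Pdgfrb (9.70 ± 0.0141 TPM), with Des lowest (0.740 TPM). All 8 endothelial markers did, from Cldn5 (42.0 ± 0.0283 TPM) down to Emcn (3.03 ± 0.325 TPM).

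The ratio of replicate 2 over replicate 1 in these classes can be set beside that of the members. Of the 10 fibroblast markers 4 were at least 1.2-fold higher in replicate 2, where 7.49% of all genes with 20 reads or more were. Their median log2 ratio was 0.12, and that of Cygb was 0.03. The medians were 0.08 for neuronal, 0.11 for astrocyte, 0.08 for endothelial and 0.06 for pericyte and smooth muscle markers. The adult globin sum, at 0.39, was above each of these medians, while the fibroblast markers Col1a1 and Col1a2 were at 0.51 and 0.38 and the astrocyte marker Gjb6 at 0.47. The part of any class in the globin ratio was not tested.

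Oxygen and nitric oxide genes, with which the tissue globins are often discussed, were mostly present. Of 15 hypoxia response genes 13 reached 1 TPM in both libraries, led by Ldha (244 ± 4.51 TPM), Pgk1 (151 ± 0.672 TPM) and Bnip3 (52.9 ± 2.85 TPM). The lowest was Car9, with 0 reads in replicate 2 and 2 in replicate 1. Of 15 genes of nitric oxide and reactive oxygen 14 did, led by Prdx2 (253 ± 3.40 TPM), which is also abundant in red cells, Gpx4 (225 ± 9.72 TPM) and Sod1 (168 ± 9.04 TPM). The inducible nitric oxide synthase Nos2 was lowest, with 0.940 TPM in replicate 2 and 1.16 TPM in replicate 1. Median log2 ratios of replicate 2 over replicate 1 were 0.08 and 0.00479 for these 2 lists.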

How the data were processed

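Expected counts per gene and transcript were made by the authors from transcriptome alignments (mm10, M21), per the deposited README files, and TPM in those tables was scaled by the authors over all rows, per the file headers. The alignment-free tables hold estimated counts and TPM made from the reads, per the deposited README files, and summed here per gene. The sources used here name no tool, version or level of the credible intervals. The credible bounds were used as deposited, as scores. Posterior mean TPM and the percent of a gene in each transcript are also deposited columns. Transcript shares were recomputed here from TPM.

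The members, lists and ratios were chosen with earlier results of these data known, and lists are described with no test. Named genes are all members, both genes of each ratio, of each list the 3 highest and the lowest, and neighbours of the globin sum in level. Outside that rule, red cell and blood cell markers, genes that overlap a member, and Klf1, Hmox1 and Hmox2 are named, the last 3 after their values were seen. Ahsp had no row here. Some red cell genes considered at first are not reported here and are in no count or sum. Gene reads were 31031340 and 29867112 in replicates 2 and 1, with 0.401% and 0.413% of reads in 96 spike-ins, which were left out. Expected counts were rounded for TMM scaling with edgeR 4.0.16 on 17577 genes; DESeq2 1.42.0 gave size factors for an alternative. The ratio step was tested on simulated reads that held counting error alone, with a known scale in place of TMM. The simulation had no division of reads between copies and no variation between animals, so it does not cover these limits. Gene types and coordinates came from GENCODE M21, promoters from RefSeq GRCm38.p6. Both libraries were quantified against the reference sequence, and alleles of the hybrid were not separated. Steps used R 4.3.3 and, under Python 3.11.15, Biopython 1.88, scipy 1.17.1, matplotlib 3.10.9, pandas 2.3.3 and numpy 2.4.6.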

Additional observations from a re-analysis of the deposited data

How the results depend on the processing

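Over 9 results, 40 alternatives kept both replicates. Of these, 23 left the result the same. For a mean, that is a move of less than the SD of the replicates, and for a count, a value within 1.5 times. For the ratio of replicate 2 over replicate 1, it is a value within the counting interval. A change of sign was possible only for the log2 ratios, and 0 of them changed sign. In the alignment-free tables the adult globin sum was 1550 TPM, and the log2 ratios were 0.12 for alpha over beta, 1.83 for Hba-a1 over Hba-a2, 2.57 for Hbb-bs over Hbb-bt, -1.37 for Ngb over Cygb, -3.47 for Alas2 over Alas1 and 0.44 for replicate 2 over replicate 1 of the sum. With TPM rescaled over coding rows the sum was 1421 TPM. Reads not divided by length gave 0.49 for Hba-a1 over Hba-a2, 2.81 for Hbb-bs over Hbb-bt, -1.87 for Ngb over Cygb and -3.21 for Alas2 over Alas1. Posterior mean TPM gave -1.22 for Ngb over Cygb and -3.75 for Alas2 over Alas1, a pseudocount of 1 gave -1.14 and -3.65, and a pseudocount of 0.01 gave -1.31 for Ngb over Cygb. Leaving out a replicate cannot move a mean of 2 beyond its SD and is given as values alone, with 7 and 7 members detected, a sum of 659 to 810 TPM, and log2 ratios of 0.53 to 0.63, 0.08 to 0.15, 2.95 to 3.06, -1.30 to -1.28 and -4.01 to -3.83 in the order above. The causes were not tested. No paired analysis was possible because the 2 samples form 1 group. Ngb and Alas2 rest on 119 to 152 reads per library, and 2 animals limit every SD.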
